A study of Bos taurus with 34 samples.

Results

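Tight junction and desmosome genes were described across the lining of the oviduct and the uterus of 5 nulliparous Holstein heifers. The genes were the numbered claudins other than CLDN5, tight junction plaque proteins including TJP1, TJP3, CGN and CGNL1, the membrane proteins OCLN, F11R, MARVELD2 and MARVELD3, and the polarity proteins PATJ, PARD3, PARD6B and CRB3. The adhesion proteins CDH1 and EPCAM, the numbered desmogleins and desmocollins, and the desmosome proteins DSP, JUP, PERP and PKP1 to PKP4 completed them. Of 50 such genes in the RefSeq annotation, 44 had a row in the count table, out of 21554 named genes in all, and 26 of the 44 had enough reads to be tested.

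All heifers had been synchronised with a 5-day CIDR-Synch protocol, in which an intravaginal insert releases progesterone, and were slaughtered on day 2 after ovulation. The labels name no treatment that differed between the groups. In each heifer the ampulla, which is the wide part of the oviduct, and the upper and mid parts of the uterine horn were taken ipsilateral and contralateral to ovulation, and the uterine body was taken as a single site. This gave 7 groups with 5 libraries each, except for 4 in the ipsilateral upper horn, since that of heifer 11110 was not analysed here. Each library was made from homogenised tissue, so all cell types of a sample contributed to it, and fewer cells of a type and less RNA per cell cannot be told apart.

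Tight junctions seal the gap between neighbouring epithelial cells. Claudins form their strands, and each cell's set of claudins decides which ions and how much water pass between cells; occludin, tricellulin and junctional adhesion molecules sit beside them, and plaque proteins such as TJP1 tie them to actin. The Crumbs and Par proteins set the apical side of the cell, and with it the place of the junction. Desmosomes are spot contacts in which desmogleins and desmocollins bridge the gap, while plakoglobin, plakophilins and desmoplakin fasten them to keratin filaments. In the oviduct and the uterus these junctions bound the fluid in which gametes and the early embryo live.

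Total counts per library ran from 11619486 to 30412782. Values below are CPM, read counts scaled to library size with TMM factors, for the transcript row with the most reads of each gene. Means are given ± SD over 5 heifers after averaging the libraries of a region within a heifer, and log2 fold changes ± SE of the model. CPM values are not divided by transcript length, so levels are compared between regions for a gene and not between genes.

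The ampulla and uterine libraries carried the markers of different tissues. The summed level of 9 general epithelial markers ran from 7392 to 11771 CPM in the 10 ampulla libraries and from 1146 to 5485 CPM in the 24 endometrial libraries, and 8 of the 9 were called higher in the ampulla and 1 lower. The summed ciliated cell markers ran from 1771 to 2489 CPM in the ampulla and from 120.2 to 630.5 CPM in the endometrium, with 11 of 12 called higher. Stromal markers summed to between 327.3 and 1048 CPM in the ampulla, against 45515 to 98731 CPM in the endometrium, with all 13 tested called lower and COL6A2, DCN, LUM, PDGFRA and PDGFRB without a read in any ampulla library. Endothelial markers summed to at most 11.4 CPM in the ampulla and at least 537.0 CPM in the endometrium, with all 9 tested called lower and CLDN5, CDH5, PECAM1, VWF and ERG without a read in the ampulla. Smooth muscle markers summed to between 8.01 and 21.0 CPM in the ampulla and between 224.8 and 3578 CPM in the endometrium, with all 7 tested called lower and ACTA2, TAGLN, MYH11 and SMTN without a read in the ampulla. Leukocyte markers summed to between 29.8 and 63.0 CPM in the ampulla and between 115.2 and 381.7 CPM in the endometrium, with 6 of 7 called lower and PTPRC and CD68 without a read in the ampulla. Several of these genes had few or no reads in the uterus too. PTPRC, CD68 and MYH11 had none in the mid horn, and PECAM1 had none in the upper horn or the body. ACTA2, SMTN and VWF averaged 0.325, 0.302 and 0.368 CPM in the endometrium, while DCN and CLDN5 averaged 43.87 and 73.35 CPM. For such low genes, no read in the ampulla cannot be read as absence of the cell type. Of all rows tested, 29.4% were called higher in the ampulla and 35.6% lower. The part of these markers in the junction results was not tested.

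Mesothelial markers ran from 302.9 to 2615 CPM in the ampulla and from 5.15 to 66.0 CPM in 23 endometrial libraries, but reached 796.4 CPM in the contralateral mid horn of heifer 10882. Of 4 tested, 2 were called higher in the ampulla and 1 lower. Most of the sum was MSLN, which averaged 1280 ± 770.3 CPM in the ampulla and had 792.6 CPM in that mid horn library. UPK3B, WT1 and LRRN4 had 3.59, 0.173 and 0 CPM in the same library. It also had the highest endometrial sums of general epithelial markers, 5485 CPM, and of ciliated cell markers, 630.5 CPM. That uterine library also stood above the other 23 for 6 of the 26 junction genes, and for these 6 genes the fold change without it is given as well. The contralateral ampulla of heifer 11070 had reads on 15773 features and the contralateral upper horn of heifer 11033 on 16049, the fewest of all libraries. No junction call of the ampulla against the endometrium was lost without these 3 libraries.

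Between the ampulla and the endometrium, 13 of the 26 junction genes were higher in the ampulla and 6 were lower, at an adjusted p under 0.05 in edgeR's quasi-likelihood test over all 17241 tested rows. Over all rows 29.4% were called higher and 35.6% lower in this comparison. The median log2 fold change was 0.58 over the 26 genes and -0.18 over all rows. Of 12 claudins tested, 4 were higher and 4 lower, which is near the shares over all rows. All 3 desmosomal cadherins tested, both polarity proteins tested, EPCAM and PERP were higher, and of the 4 desmosome plaque proteins 2 were higher and 1 lower. A row passed the count filter when it was well covered in a group, so these counts describe the tested members and not all 44. A gene near 0 in 1 tissue passed through the other, where it was high.

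**Figure D1:**
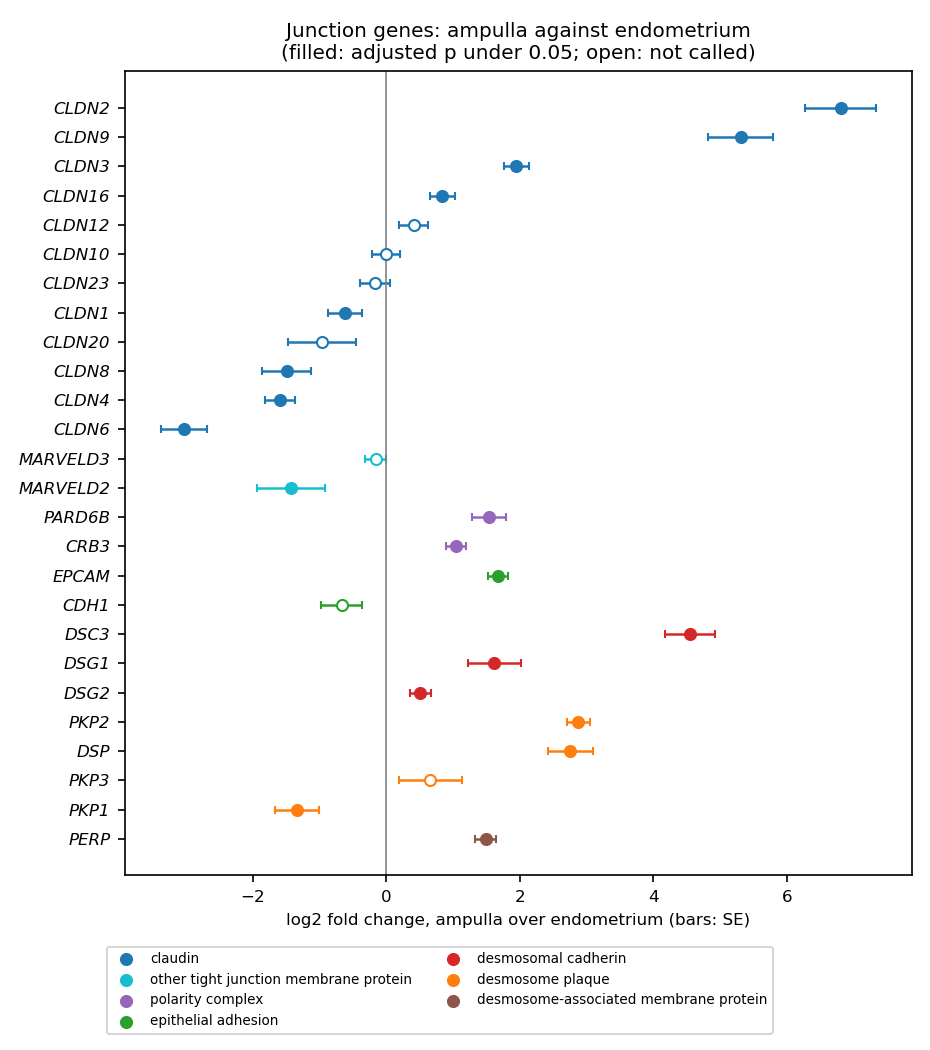
Log2 fold change of the ampulla over the endometrium (horizontal axis) for the 26 tested junction genes, grouped by role; points are estimates, bars are ± SE, filled points were called and open points were not. Claudins run from 6.81 for CLDN2 to -3.03 for CLDN6, while the 3 desmosomal cadherins lie to the right of 0.

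CLDN2, which in human and mouse epithelia forms a pore for cations and water, was far higher in the ampulla. Its libraries there had 5.02 CPM at the lowest, 9.81 CPM at the median and 13.5 CPM at the highest, while 10 of the 24 endometrial libraries had no read, the median was 0.0456 CPM and the highest, the contralateral mid horn of heifer 10882, had 3.07 CPM. The regions did not overlap in any library. The log2 fold change was 6.81 ± 0.53 (adjusted p = 9.92e-13) and 7.11 without that mid horn library, whose 71 reads compare with 35 reads in the other 23 endometrial libraries together. Those 23 reached at most 0.251 CPM, so the row passed the count filter through the ampulla, where it was high. The call and the separation carry that limit. By mean, CLDN2 was at 9.59 ± 2.63 CPM in the ampulla, against 0.192 ± 0.273 CPM in the endometrium, or 0.0723 ± 0.0332 CPM without that library.

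CLDN9, a close relative of CLDN6 known in the mouse inner ear, showed the same separation. Ampulla libraries ran from 14.8 through a median of 29.4 to 41.3 CPM, against 0 through 0.683 to 10.9 CPM in the endometrium, where the highest value was again the contralateral mid horn of heifer 10882 and the next highest was 2.26 CPM. No endometrial library reached the lowest ampulla library. CLDN9 was higher by 5.31 ± 0.49 on the log2 scale (adjusted p = 8.93e-11), and by 5.60 without that library.

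CLDN3, a sealing claudin of many simple epithelia, had 350.6, 560.3 and 733.9 CPM at the lowest, median and highest ampulla library and 53.2, 153.5 and 298.9 CPM in the endometrium. Here too the ranges did not meet, with a log2 fold change of 1.95 ± 0.19 (adjusted p = 1.77e-10), and 1.98 without the contralateral mid horn of heifer 10882, the highest endometrial library. CLDN16, known for magnesium reabsorption in the human kidney, changed less: it had 4.84, 8.12 and 10.3 CPM in the ampulla against 1.64, 3.94 and 8.96 CPM in the endometrium. Its ranges overlapped, 5 endometrial libraries lying above the lowest ampulla library, but the heifer mean was higher in the ampulla in 5 of 5 heifers (log2 fold change 0.84 ± 0.19, adjusted p = 2.90e-04).

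The 4 claudins that were lower in the ampulla all kept reads in every ampulla library. CLDN6, best known from embryonic epithelia in human and mouse, had 0.240, 1.35 and 2.47 CPM at the lowest, median and highest ampulla library, against 1.39, 12.3 and 25.6 CPM in the endometrium. Only 3 of the 24 endometrial libraries lay below the highest ampulla library, and the log2 fold change was -3.03 ± 0.35 (adjusted p = 6.79e-09). CLDN4, a sealing claudin that also binds the toxin of Clostridium perfringens, had 25.3, 60.7 and 80.7 CPM in the ampulla, against 39.6, 191.9 and 445.7 CPM in the endometrium. It was lower in the ampulla in 5 of 5 heifers, with a log2 fold change of -1.59 ± 0.22 (adjusted p = 2.19e-07).

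CLDN8, which in mouse kidney pairs with CLDN4, varied more between animals. Its ampulla libraries had 6.70, 18.1 and 55.7 CPM and its endometrial libraries 13.7, 55.6 and 151.9 CPM, so 12 of 24 endometrial libraries lay within or below the ampulla range. Heifer 11033 had almost equal means, 46.7 CPM in the ampulla, against 48.3 CPM in the endometrium, and heifer 11110 had 18.95 CPM in the ampulla, against 20.6 CPM in the endometrium. The call, a log2 fold change of -1.49 ± 0.37 (adjusted p = 8.20e-04), was kept when each heifer was left out. CLDN1, needed for the water barrier of mouse skin, had 27.6, 119.7 and 176.1 CPM in the ampulla, against 21.4, 168.4 and 269.7 CPM in the endometrium. Its difference was smaller, with a log2 fold change of -0.62 ± 0.25 (adjusted p = 0.0322), heifer 11033 ran the other way, and the call was lost in 4 of the 5 fits that left out a heifer (10872, 10882, 11070 or 11110), with adjusted p up to 0.143.

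The other 4 tested claudins were not called. CLDN10, which forms ion pores, averaged 18.2 ± 9.68 CPM in the ampulla, against 18.6 ± 4.42 CPM in the endometrium, with a log2 fold change of 0.00 ± 0.21 and an adjusted p of 0.991. CLDN12 had a log2 fold change of 0.41 ± 0.22, CLDN23 of -0.17 ± 0.23 and CLDN20 of -0.96 ± 0.51. CLDN12 was higher in the ampulla in 5 of 5 heifers and was called in the fit without the 3 libraries named above (log2 fold change 0.46, adjusted p = 0.00363). CLDN20 rested on few reads, with 434 in the endometrium as a whole. It was lower in the ampulla in 5 of 5 heifers and was called lower in 3 of 12 alternative fits, with adjusted p between 0.0235 and 0.274 over the 12.

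**Figure D2:**
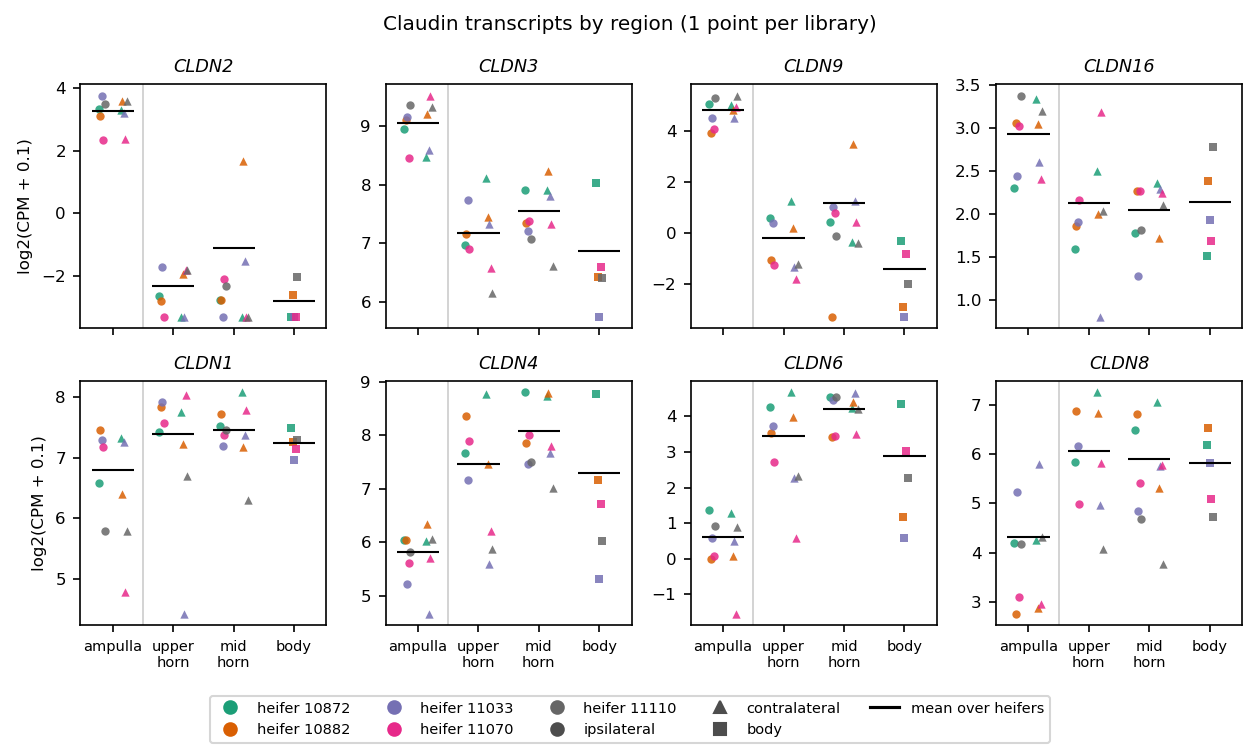
Level of 8 claudins by region, as log2 of CPM plus 0.1, with 1 point per library, colours for heifers, and circles, triangles and squares for ipsilateral, contralateral and body samples; the line is the mean over heifers, taken before the log. The upper row holds the 4 claudins that were higher in the ampulla and the lower row the 4 that were lower, and the orange triangle of the mid horn stands apart for CLDN2 and CLDN9.

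Among the remaining tight junction membrane proteins, MARVELD2, or tricellulin, which closes the points where cells meet at corners, was lower in the ampulla at a very low level. It had 0, 0.0640 and 0.523 CPM in the ampulla, against 0, 0.453 and 1.33 CPM in the endometrium, with a log2 difference of -1.43 ± 0.51 (adjusted p = 0.0143) that missed the threshold when heifer 10882 or 11110 was left out (adjusted p up to 0.0947). MARVELD3, a relative of occludin, had 9.47 ± 2.87 CPM in the ampulla, against 11.8 ± 5.86 CPM in the endometrium, and was not called (log2 fold change -0.16 ± 0.16). These values are for 1 of its 2 rows, with 7888 of the 15500 reads of the gene. With the rows summed the log2 fold change was 0.09.

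Both tested polarity proteins were higher in the ampulla. CRB3, the Crumbs protein of the apical membrane, had 27.8, 33.6 and 41.6 CPM in the ampulla, against 7.66, 17.7 and 29.9 CPM in the endometrium, and 3 endometrial libraries exceeded the lowest ampulla library. Its ampulla means differed little between heifers, from 32.3 to 36.4 CPM, and the log2 fold change was 1.04 ± 0.15 (adjusted p = 5.38e-07). PARD6B, the Par protein that binds atypical protein kinase C and CDC42, had 5.59, 28.1 and 49.5 CPM in the ampulla, against 0.774, 8.94 and 19.6 CPM in the endometrium. It was higher in 5 of 5 heifers by 1.54 ± 0.25 on the log2 scale (adjusted p = 3.87e-06), although 20 endometrial libraries lay above the lowest ampulla library, the contralateral one of heifer 11070.

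Of the adhesion molecules EPCAM was higher in the ampulla, while CDH1 was not called. EPCAM, a marker of simple epithelia that stabilises claudins, had 1264, 1747 and 2679 CPM in the ampulla, against 329.5, 539.2 and 1310 CPM in the endometrium, with 1 endometrial library above the lowest ampulla library and a log2 fold change of 1.68 ± 0.15 (adjusted p = 4.22e-11). CDH1, or E-cadherin, the main cadherin of epithelial adherens junctions, had 34.7, 174.2 and 272.6 CPM in the ampulla, against 6.67, 242.5 and 495.0 CPM in the endometrium. Heifer 10882 ran opposite to the other 4, and CDH1 was not called, with a log2 fold change of -0.67 ± 0.31 and an adjusted p of 0.0548. That p lay near the threshold: 7 of 12 alternative fits called CDH1 lower, with adjusted p between 9.01e-06 and 0.189 over the 12.

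DSC3, a desmocollin typical of the basal cells of stratified epithelia, separated the regions most clearly among the desmosomal cadherins. It had 6.90, 12.4 and 28.8 CPM in the ampulla, against 0.116, 0.645 and 5.40 CPM in the endometrium. No library overlapped, although the highest endometrial library, again the contralateral mid horn of heifer 10882, came close, while the next had 2.25 CPM. DSC3 was higher by 4.55 ± 0.38 on the log2 scale (adjusted p = 4.12e-12) and by 4.56 without that library.

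DSG2, the desmoglein of simple epithelia and heart muscle, had 121.4, 249.6 and 341.6 CPM in the ampulla, against 76.2, 167.5 and 290.9 CPM in the endometrium. The ranges overlapped widely; the mean was higher in the ampulla in 5 of 5 heifers, by 0.51 ± 0.16 on the log2 scale (adjusted p = 0.00533), and the call was lost without heifer 10882 (adjusted p = 0.0621). DSG1, a desmoglein of the upper epidermis, was near the limit of detection, with at most 1.13 CPM in any ampulla library and 0.890 CPM in any endometrial library. It was called higher all the same (log2 fold change 1.62 ± 0.40, adjusted p = 8.15e-04). The mean was higher in the ampulla in 4 of 5 heifers, and heifer 10882 had 0.385 CPM there, against 0.416 CPM in the endometrium. Of the 24 endometrial libraries, 13 lay above the lowest ampulla library.

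In the desmosome plaque, PKP2, the plakophilin of simple epithelia and heart, had 124.1, 204.6 and 232.3 CPM in the ampulla, against 12.3, 27.2 and 85.5 CPM in the endometrium. The libraries did not overlap, and the log2 fold change of 2.88 ± 0.17 had the smallest adjusted p of the 26 genes (8.12e-16). The highest endometrial value was that of the contralateral mid horn of heifer 10882, the next 44.6 CPM, and without it the log2 fold change was 2.95. PKP1, the plakophilin of stratified epithelia, went the other way, with 4.31, 14.3 and 27.4 CPM in the ampulla, against 4.45, 34.8 and 72.1 CPM in the endometrium (log2 fold change -1.34 ± 0.33, adjusted p = 6.83e-04). It was lower in the ampulla in 5 of 5 heifers, though by little in heifer 10882, with 18.1 CPM in the ampulla, against 21.7 CPM in the endometrium.

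DSP, desmoplakin, which binds the keratin filaments, had 43.3, 501.3 and 701.1 CPM in the ampulla, against 2.71, 54.1 and 182.8 CPM in the endometrium. Its level varied widely within the ampulla: heifer means ran from 163.7 CPM in heifer 11110 to 685.6 CPM in heifer 10872, against 46.8 to 72.1 CPM in the endometrium. DSP was higher in the ampulla in 5 of 5 heifers, by 2.76 ± 0.34 on the log2 scale (adjusted p = 6.84e-08), and by 3.0 without the 3 libraries named above. Without the contralateral mid horn of heifer 10882 alone, its highest endometrial library, the log2 fold change was 2.88. PKP3 had under 1 CPM in every library and was not called (log2 fold change 0.66 ± 0.47) except with the rows of a gene summed, 1 of 12 alternative fits (0.93, adjusted p = 0.0424). PERP, a membrane protein that desmosomes of mouse stratified epithelia need, had 287.8, 395.2 and 520.0 CPM in the ampulla, against 63.8, 152.2 and 327.0 CPM in the endometrium. A single endometrial library exceeded the lowest ampulla library, and PERP was higher by 1.49 ± 0.16 (adjusted p = 1.96e-09).

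**Figure D3:**
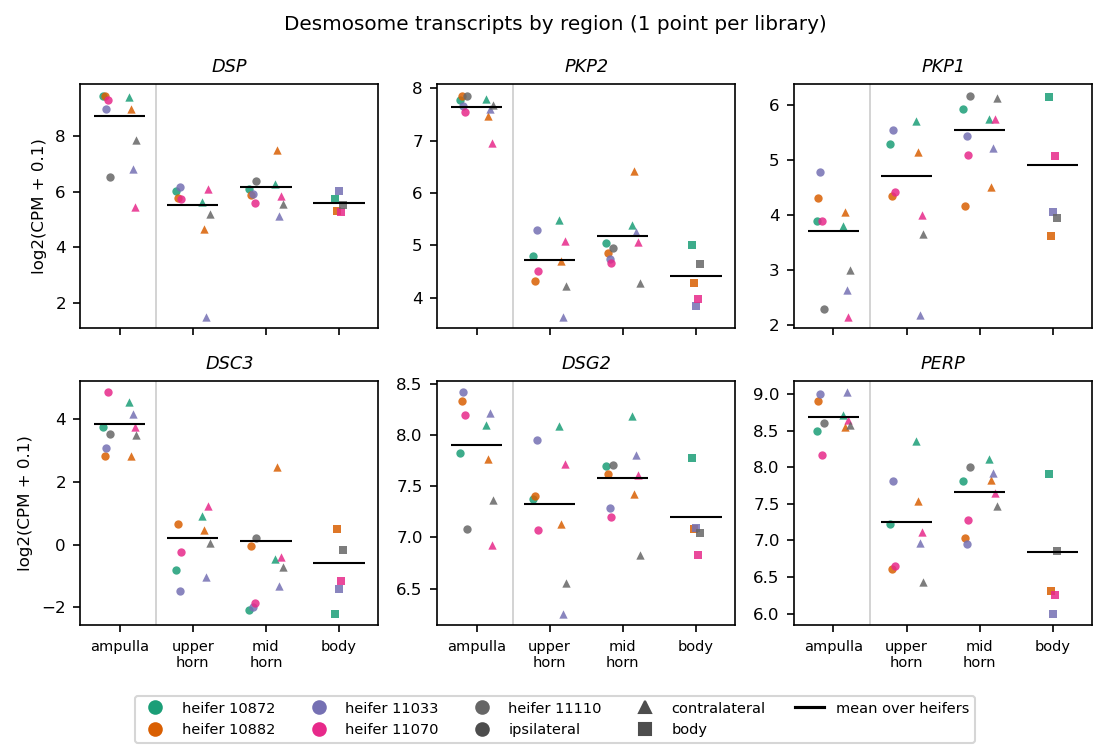
Level of 6 desmosome genes by region, as log2 of CPM plus 0.1, drawn as in the plot of claudins with 1 point per library and a line at the mean over heifers. PKP2 and DSC3 do not overlap between the ampulla and the other regions, PKP1 lies lower in the ampulla, and the low DSP points are the contralateral ampulla of heifer 11070 and the contralateral upper horn of heifer 11033.

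Ratios of paired genes within a library do not depend on the scaling between libraries, and a difference of ratios between regions does not depend on transcript length. The pairs were chosen after the mean counts of the genes had been seen and carry no test; errors are SD over 5 heifers. The log2 ratio of CLDN3 to CLDN4 counts averaged 3.26 ± 0.47 in the ampulla and -0.25 ± 0.51 in the endometrium. The difference was nearly the same in each animal, 3.51 ± 0.12 with a range of 3.41 to 3.69. The ratio of CLDN9 to CLDN6 averaged 4.42 ± 0.64 in the ampulla and -4.19 ± 0.54 in the endometrium, and that of PKP2 to PKP1 4.15 ± 0.62 in the ampulla and -0.13 ± 0.46 in the endometrium. For all 3 pairs the ratio was higher in the ampulla in 5 of 5 heifers and in every library than in any endometrial library. Without the contralateral mid horn of heifer 10882 the endometrial mean was -4.38 ± 0.88 for CLDN9 to CLDN6 and -0.20 ± 0.35 for PKP2 to PKP1, and that of CLDN3 to CLDN4 stayed at -0.25 ± 0.51.

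Ratios to EPCAM separated junction genes that followed it from those that did not. The log2 ratio of PERP to EPCAM differed between the ampulla and the endometrium by -0.20 ± 0.30 and that of CLDN3 to EPCAM by 0.24 ± 0.47, differences of either sign among heifers. The ratio of CLDN4 to EPCAM differed by -3.27 ± 0.44 and was lower in the ampulla in 5 of 5 heifers, while that of PKP2 to EPCAM differed by 1.25 ± 0.37 and was higher in 5 of 5. DSP to EPCAM differed by 0.99 ± 1.30, with 4 of 5 heifers higher in the ampulla. The ratio of EPCAM to CDH1 averaged 3.72 ± 0.67 in the ampulla and 1.40 ± 0.51 in the endometrium, but the contralateral upper horn of heifer 11033 stood at 5.96, above every ampulla library.

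**Figure D4:**
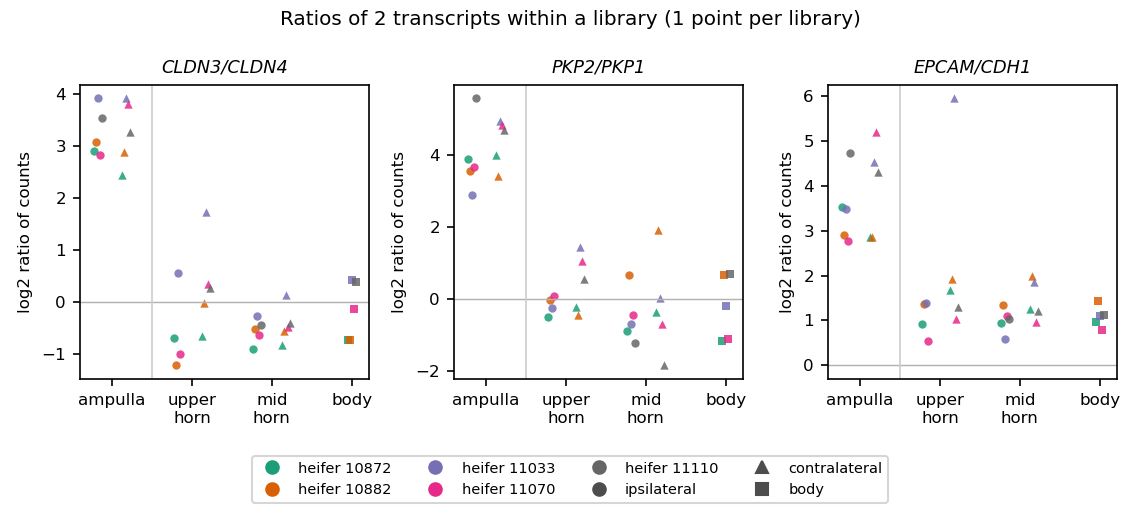
Log2 ratio of the counts of paired genes within a library, by region, with 1 point per library and colours and markers for heifers and sides. CLDN3 to CLDN4 and PKP2 to PKP1 do not overlap between ampulla and uterine libraries, and EPCAM to CDH1 overlaps through the upper horn library at 5.96.

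The 2 libraries with the fewest detected features held uneven levels of junction transcripts. Against the other libraries of its region, 13 of 26 genes were lower than in every other library in the contralateral ampulla of heifer 11070, and 15 of 26 in the contralateral upper horn of heifer 11033. The share of all rows that were lowest in these libraries was not counted, so the counts say nothing particular to junction genes. In the ampulla library of heifer 11070, DSP stood at 8.56% of the median of the other ampulla libraries, CDH1 at 18.2%, PARD6B at 18.9%, CLDN1 at 19.2% and CLDN12 at 20.9%. In the upper horn library of heifer 11033, CDH1 stood at 2.75% of the median of the other upper horn libraries, DSP at 5.04%, PARD6B at 7.48%, CLDN1 at 10.6% and CLDN12 at 10.7%. These 5 were not the only low ones: CLDN6 stood at 17.2% in the ampulla library, and PKP1 at 29.4% there and 15.7% in the upper horn library. Some junction transcripts were not low in either. CLDN3 stood at 132.9% in the ampulla library, above every other ampulla library, and at 119.7% in the upper horn library. MARVELD3 stood at 152.8% in the ampulla and 164.8% in the upper horn, CRB3 at 111.3% in the ampulla and 125.2% in the upper horn, and PERP at 103.4% in the ampulla and 86.7% in the upper horn.

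Several core genes of both junctions could not be tested. CLDN7, CLDN15, DSC2, DSG3 and PARD3 were among those without a matched row and were not analysed here, and 18 genes had a row with too few reads, from 1 to 120 over all 34 libraries. These 18 were CLDN11, CLDN14, CLDN17, CLDN18, CLDN19, CLDN25, CLDN34, DSC1, DSG4, JUP, PKP4, F11R, OCLN, PATJ, CGN, CGNL1, TJP1 and TJP3. OCLN, or occludin, had 17 reads in the ampulla and 64 in the endometrium, TJP1 had 7 in the ampulla and 17 in the endometrium, and JUP, or plakoglobin, had 38 in the ampulla and 60 in the endometrium. The table counts reads per transcript, and low totals went with the number of annotated transcripts: members with 1 transcript had a median total of 8958 reads, those with 2 had 248, and those with 3 or more had 34. Since a row covers a single transcript, low values of genes such as TJP1, with 9 annotated transcripts, and PKP4, with 17, cannot be read as absence of the gene.

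Genes that work with these junctions were counted from lists outside the members. For scale, 29.4% of all rows were called higher in the ampulla and 35.6% lower, with a median log2 fold change of -0.18. Of 24 tested tight junction and polarity partners, 14 were higher and 3 lower in the ampulla, with a median log2 fold change of 0.61. CRB2, another Crumbs protein, had 177.7 ± 70.7 CPM in the ampulla, against 4.61 ± 6.70 CPM in the endometrium (log2 fold change 6.30 ± 0.55, adjusted p = 2.04e-10), and the contralateral mid horn of heifer 10882 had 76.7 CPM. Without that library CRB2 averaged 1.60 ± 0.455 CPM in the endometrium (log2 fold change 6.71 ± 0.32). LIN7A (1.99 ± 0.15) and PRKCI, the atypical protein kinase C of the Par complex (1.23 ± 0.20), were also higher, and the scaffold MPDZ was lower (-1.68 ± 0.17). Of 11 adherens junction genes 6 were higher and 2 lower, with a median of 0.94. CDH2, or N-cadherin, rose by 2.38 ± 0.15 on the log2 scale, to 202.6 ± 23.3 CPM in the ampulla, against 43.5 ± 13.6 CPM in the endometrium, and NECTIN3, CTNNB1 and EPB41L5 rose by 1.17, 1.14 and 1.11.

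Of 12 tested partners of the desmosome and its keratin filaments, 8 were higher in the ampulla and 2 lower, with a median log2 fold change of 1.92. The shares over all rows were again 29.4% higher and 35.6% lower, with a median of -0.18. KRT5, a keratin of basal cells and of mesothelium, averaged 1162 ± 279 CPM in the ampulla, against 21.9 ± 39.0 CPM in the endometrium (log2 fold change 9.03 ± 0.76, adjusted p = 1.65e-10), and the contralateral mid horn of heifer 10882 had 453.6 CPM. Without that library KRT5 averaged 3.77 ± 4.63 CPM in the endometrium (log2 fold change 9.58 ± 0.50). KRT23, KRT18 and KRT8 rose by 6.05 ± 0.46, 2.92 ± 0.16 and 2.31 ± 0.14 on the same scale. Among 15 tested regulators of epithelial junctions 6 were higher and 8 lower, with a median of -1.37. The 4 with the largest changes are repressors of epithelial genes that stromal cells also express: their log2 fold changes were -10.42 ± 0.33 for SNAI2, -8.10 ± 0.32 for TWIST2, -4.65 ± 0.31 for TWIST1 and -3.28 ± 0.22 for ZEB1. The stromal markers given above were lower too, and their part in this result was not tested.

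Against the upper horn alone, the part of the uterus next to the oviduct, 13 of 26 genes were higher in the ampulla and 4 lower, while 24.9% of all rows were higher and 30.4% lower. This comparison shares its ampulla libraries with the one above. The 13 included CLDN2 (6.63 ± 0.73), CLDN9 (5.28 ± 0.67), DSC3 (4.11 ± 0.49), DSP (3.0 ± 0.47) and PKP2 (2.88 ± 0.23), and the 4 were CLDN6 (-2.95 ± 0.39), CLDN8 (-1.63 ± 0.42), CLDN4 (-1.51 ± 0.25) and PKP1 (-1.04 ± 0.37), as log2 fold changes. CLDN1 (adjusted p = 0.0643) and MARVELD2 (adjusted p = 0.0655) were not called against the upper horn. DSG1 was not called without heifer 10872 or 11033, DSG2 without 10882 or 11033 or without the heifer term, and PKP1 without 10872 or 11070.

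Within the uterus, 4 junction genes were higher in the mid horn than in the body and none was lower, while 0.528% of all rows were called higher and 3.92% lower. CLDN4 averaged 270.8 ± 113.9 CPM in the mid horn and 157.0 ± 159.4 CPM in the body, CLDN6 averaged 18.5 ± 5.03 CPM in the mid horn and 7.28 ± 7.68 CPM in the body, and PERP 201.7 ± 32.2 CPM in the mid horn and 114.9 ± 72.1 CPM in the body (SD, n = 5 heifers). CLDN9 averaged 2.13 ± 1.94 CPM in the mid horn, or 1.04 ± 0.780 CPM without the contralateral library of heifer 10882, and 0.268 ± 0.302 CPM in the body. The log2 fold changes were 1.09 ± 0.30 for CLDN4 (adjusted p = 0.0444), 1.52 ± 0.46 for CLDN6 (adjusted p = 0.0497), 2.85 ± 0.83 for CLDN9 (adjusted p = 0.0471) and 0.89 ± 0.25 for PERP (adjusted p = 0.0449), each higher in the mid horn in 5 of 5 heifers.

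By animal, CLDN4 had 434.4, 335.6, 189.8, 239.2 and 155.0 CPM in the mid horns of heifers 10872, 10882, 11033, 11070 and 11110, against 433.4, 142.5, 39.6, 104.5 and 64.9 CPM in their bodies. In the same order of heifers, CLDN6 had 20.9, 15.8, 23.65, 11.1 and 20.95 CPM in the mid horns and 20.2, 2.13, 1.39, 8.0 and 4.67 CPM in the bodies. PERP had 251.5, 178.7, 182.8, 178.2 and 217.2 CPM in the mid horns and 239.1, 79.0, 63.8, 76.4 and 116.1 CPM in the bodies. Heifer 10872 had almost the same level at both sites for CLDN4, CLDN6 and PERP, and the other 4 heifers had lower bodies. CLDN9 had 0.952, 5.47, 2.09, 1.42 and 0.728 CPM in the mid horns and 0.698, 0.0318, 0, 0.464 and 0.146 CPM in the bodies. All 4 calls were kept with DESeq2 size factors, with the DESeq2 Wald test and with the rows of a gene summed, and 3 of the 4, all but CLDN9, without the 3 libraries named above. All 4 were lost without the heifer block in the model (adjusted p from 0.156 to 0.313), where the log2 fold changes were 0.78 for CLDN4, 1.34 for CLDN6, 2.74 for CLDN9 and 0.80 for PERP. They were also lost without heifer 10882, 11033, 11070 or 11110, and without the contralateral mid horn library of heifer 10882 alone (adjusted p from 0.0716 to 0.0760), where the log2 fold changes were 1.04 for CLDN4, 1.48 for CLDN6, 2.06 for CLDN9 and 0.87 for PERP. The summed general epithelial markers moved with them, with 2393 to 5485 CPM in mid horn libraries and 1146 to 4298 CPM in body libraries, and KRT7, KRT8 and KRT18 of that list were called higher in the mid horn, though not without that library (adjusted p from 0.0675 to 0.0717). The part of these markers in the result was not tested.

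**Figure D5:**
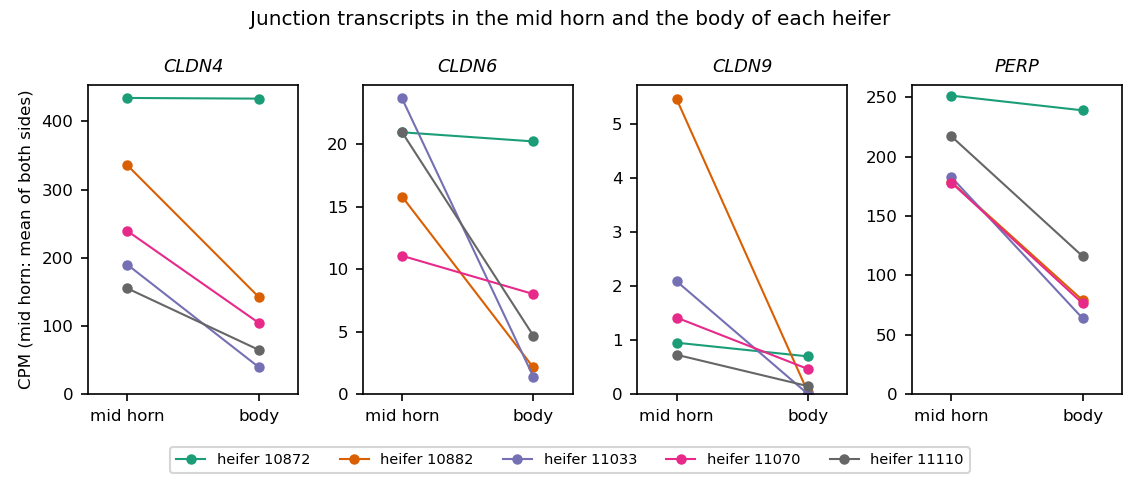
CPM of CLDN4, CLDN6, CLDN9 and PERP in the mid horn (mean of both sides) and the body of each heifer, joined by a line per heifer on linear axes that start at 0. Heifer 10872 (green) is nearly level for CLDN4, CLDN6 and PERP, and the others are lower in the body.

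With the count filter, no junction gene was called between the upper horn and the body or between the upper and the mid horn by edgeR or by DESeq2 (without the filter, 3 were called lower in the upper than in the mid horn), while edgeR called 0.0232% of all rows between the upper horn and the body and 0.0174% between the upper and the mid horn. At an unadjusted p under 0.05 stood 2 of the 26 genes in the first comparison, CLDN10 and CRB3, both higher in the upper horn, beside 11.2% of all rows. In the second stood 5, CLDN4, CLDN6, CLDN9, CLDN23 and PKP1, all lower in the upper horn, beside 6.08% of all rows; these genes are named after their values were seen. The mean over heifers was highest in the mid horn for 17 of 26 genes and lowest in the body for 16 of 26. The share over all rows was not counted, so these counts say nothing particular to junction genes. They include the contralateral mid horn library of heifer 10882. CLDN2 averaged 0.364 CPM in the mid horn with that library and 0.0621 CPM without it, against 0.102 CPM in the upper horn. EPCAM was highest in the mid horn, at 732.4 ± 206.2 CPM. It averaged 593.9 ± 230.8 CPM in the upper horn and 484.1 ± 222.7 CPM in the body. Its mean was lower in the upper than in the mid horn in 5 of 5 heifers (adjusted p = 0.790), higher in the mid horn than in the body in 5 of 5 (adjusted p = 0.0934) and higher in the upper horn than in the body in 4 of 5 (adjusted p = 0.572).

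The side of ovulation gave no called junction gene. Log2 fold changes of ipsilateral over contralateral samples ran from -0.99 for MARVELD2 to 0.88 for DSP in the ampulla, with a median SE of 0.42 over the 26 genes. In the upper horn they ran from -1.07 for DSC3 to 0.87 for PARD6B, with a median SE of 0.45. In the mid horn they ran from -2.50 for CLDN2 to 0.62 for CLDN20, with a median SE of 0.42. Of all rows, edgeR called 0.0174% in the ampulla, 0.0058% in the upper horn and 0% in the mid horn. At an unadjusted p under 0.05 stood 0 of the 26 genes in the ampulla, 1 in the upper horn, which was CLDN4, and 1 in the mid horn, which was CLDN2, beside 7.25% of all rows in the ampulla, 6.89% in the upper horn and 2.98% in the mid horn, and DESeq2 called none. CLDN4 averaged 227.9 ± 77.4 CPM in the 4 ipsilateral upper horns and 158.7 ± 163.2 CPM in the 5 contralateral ones (log2 fold change 0.85 ± 0.36, adjusted p = 0.706), and it was called without heifer 10872. The CLDN2 value in the mid horn rested on 1 library: the ipsilateral mid horns averaged 0.0648 CPM, and the contralateral ones 0.664 CPM with 3.07 CPM in heifer 10882. The difference between the side effect in the ampulla and that in the horns was tested as well. It gave 0 of 26 genes and 5.32% of all rows at an unadjusted p under 0.05, a smallest adjusted p of 0.956, 0% of all rows called by edgeR and no gene called by DESeq2, with a median SE of 0.52 that limits how small a difference could be seen.

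Animals also differed in their level of junction transcripts. Heifer 10872 had the highest endometrial mean for 16 of 26 genes, and heifer 11110 the lowest for 11 of 26 in the endometrium and for 10 of 26 in the ampulla. In the ampulla no heifer led for more than 9 genes, which was heifer 11033. The endometrial mean of heifer 11110 lacks the ipsilateral upper horn. The share over all rows was not counted and genes of a sample vary together, so these counts say nothing particular to junction genes.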

How the data were processed

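RNA was measured in 34 libraries from 5 heifers, named by the site, side and heifer number in the titles. Tissue was homogenised with beads and its total RNA isolated with a Qiagen RNeasy micro kit, and the NEBNext Ultra II Directional kit gave the libraries, per the labels' protocols. The table deposited by the authors holds whole-number read counts per annotated transcript, not normalised, in 38568 rows. The tools were HTSeq, SAMtools, cutadapt and STAR 2.7.9a, per the submitters' processing notes, which give no roles. Build, annotation release, use of strand and the handling of shared reads were not given in the sources used here, so overlapping and antisense genes are uncertain, and so are close relatives such as CLDN6 and CLDN9 or CLDN3 and CLDN4. No sequencing batch was named in the labels.

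Rows were named by transcript accession from a RefSeq gene table (ARS-UCD2.0), used for names only. It matched 26362 rows holding 95.3% of the counts and left 12206 unmatched. Of the 44 members, 22 matched by the same accession version and 22 by another version. Where a gene had several rows, as 11 members did, the row of highest mean count was used. The members and the lists were chosen with earlier results of these data known.

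The quasi-likelihood F test of edgeR 4.0.16 (R 4.3.3; TMM, filterByExpr, robust) was run on all libraries, with group and heifer as terms, and 17241 rows passed the filter. P-values were adjusted by Benjamini-Hochberg within each of 9 contrasts, and a call is an adjusted p under 0.05. In the fitted contrast the endometrium weights the upper horn, mid horn and body equally. Endometrial means of CPM and of ratios instead average all uterine libraries of a heifer, so horn parts sampled on both sides weigh more than the body. SE is the size of the log2 fold change divided by the root of F. Ratios were taken after adding 0.5 to each count. Procedures were tested on simulated data. Heifers pair the libraries by design. Deviations from group means correlated with a median of 0.207 within heifers (99 pairs) and -0.0539 between libraries of other heifers and groups (396 pairs). Centring on group means itself pushes the second value below 0, so it adds nothing to the first. No libraries of a group agreed within sampling noise, with a chi-square per transcript of at least 44.8 over 66 pairs.

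Members called in any contrast were given with values, and members not called if over 50 CPM on average; from each list, up to 4 called genes with the largest change and a mean over 5 CPM were named. Alternatives were DESeq2 size factors, the DESeq2 1.42.0 Wald test, no filter, no heifer term, each heifer left out, the 3 libraries that stood apart or the mid horn one alone left out, and the rows of a gene summed.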

Additional observations from a re-analysis of the deposited data

Results flagged for a closer look

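Heifer means were tested for a value that stood apart from the other 4 heifers, for 26 genes in the ampulla and the endometrium. Of 52 such groups 8 held one, and chance gives about 1 in 20.

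In the ampulla, CLDN10 averaged 34.7 CPM in heifer 11033, against 10.96 to 17.4 CPM in the other heifers. CLDN2 averaged 5.07 CPM in heifer 11070, below the 9.81 to 11.5 CPM of the others, and it was similarly low in both ampullae of that animal. CLDN20 averaged 0.844 CPM in heifer 11070, against 0.261 to 0.411 CPM in the others. That mean rested on 1 library of a gene with few reads: the ipsilateral ampulla had 1.69 CPM and the contralateral ampulla no read.

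In the endometrium, heifer 10872 held 3 of the values. CDH1 averaged 423.9 CPM there and 207.1 to 240.4 CPM in the others, PERP 243.6 CPM there and 134.4 to 159.2 CPM in the others, and CLDN23 12.6 CPM there and 4.01 to 5.35 CPM in the others. CLDN2 averaged 0.676 CPM in heifer 10882, against 0.0209 to 0.108 CPM in the others, a mean set by its contralateral mid horn library. PKP3 averaged 0.342 CPM in heifer 11070 and 0.208 to 0.239 CPM in the others.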

How the results depend on the processing

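All 19 calls of the ampulla against the endometrium held under every alternative that kept the 5 heifers. With a heifer left out, 12 to 13 genes were higher and 4 to 7 lower, and the calls lost were CLDN1, DSG2 and MARVELD2. Without the filter 10 were lower. Against the upper horn, 4 genes were lower; the DESeq2 Wald test gave 7, no filter 8, the fit without the 3 libraries 7, and those without a heifer 3 to 7. Between the mid horn and the body, 4 genes were higher; DESeq2 size factors and summed rows kept the 4, the DESeq2 Wald test gave 5 and the fit without the 3 libraries 3; no filter gave 8, no replicate block 0, the fit without the contralateral mid horn of heifer 10882 gave 0, and those without a heifer gave 0 to 6, with 6 without heifer 10872 and, without heifer 11110, PKP2 alone. Between the upper and mid horn, no filter gave 3 lower, where 0 had been called. Ipsilateral over contralateral in the upper horn gave 0 to 1 higher without a heifer. Of the tight junction partners 3 were lower in the ampulla, 5 with no filter and 2 to 5 without a heifer. Of the adherens genes 2 were lower, 1 to 2 without a heifer.

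Signs turned for 3 genes that were not called. CLDN10 was at -0.08 with DESeq2 size factors and with DESeq2, -0.06 with no filter, -0.03 with rows summed, -0.01 without that mid horn library and from -0.28 to 0.17 without a heifer. CLDN23 was at -0.35 to 0.03 without a heifer, and MARVELD3 at 0.09 with rows summed. The cause was not tested. The median over all rows was -0.18 here, -0.27 with DESeq2 size factors and -0.31 with no filter. The fit without the replicate block kept all 19 calls of the ampulla against the endometrium and lost DSG2 against the upper horn. With few reads per transcript row, the 18 genes with low totals could not be compared.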
